A study of Homo sapiens with 2 samples.

Results

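The genes described here encode solute carriers (SLC), the largest group of human membrane transporters, apart from the mitochondrial SLC25 carriers. Members were chosen by name alone, as gene symbols that begin with SLC and a family number and not with SLC25A, and 194 of the 12353 identifiers in the table met this rule. BJ cells, an established line of human foreskin fibroblasts, were kept untreated in medium with 10% serum, and their nascent RNA was sequenced after a nuclear run-on (GRO-seq). The run-on lasted 5 min at 30 °C with a brominated nucleotide, and the labelled RNA was captured and sequenced, so a value reports the density of transcribing polymerase over a gene and not the amount of mRNA or protein. The 2 libraries were biological replicates of 1 group, called library a and library b here, so there was no second condition and no p-value. Values are FPKM, a fragment number corrected for gene length and library size, given per library or as mean ± SD (n = 2), and the read depth behind them is unknown. In a bulk sample, fewer cells with a transcribed gene and less transcription per cell cannot be told apart.

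Solute carriers move nutrients, ions and metabolites through membranes by conformational change, driven by the gradient of the substrate itself or by coupling to sodium, protons or a counter-substrate. Those of the plasma membrane set what a cell takes up and releases, and those of the Golgi, endoplasmic reticulum and lysosome supply or empty the compartments of the secretory and degradative pathways. Fibroblasts secrete collagens and sulfated proteoglycans, which draw on amino acids, nucleotide sugars and the sulfate donor PAPS. In the text the members are grouped by their textbook substrate. The labelled cell type was checked against markers: all 8 fibroblast markers had values (7.34 to 649 FPKM), none of the 4 leukocyte and none of the 4 endothelial markers did, and of 4 epithelial markers only CDH1 did, at 1.49 ± 0.0141.

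Most solute carrier genes were transcribed at modest levels, and a few were very high. The median member stood at 8.74 FPKM (8.70 in library a and 8.82 in b), against 11.7 for all genes in the table, which is 0.747 times as high. Of the 194 members, 74 (38.1%) were at or above the median of all genes, where the background is 50% by construction. A level of 20 FPKM was reached by 34 members (17.5%), against 28.5% of all genes, and a level of 100 by 4 (2.06%), against 2.43%. The quartiles of the members were 4.82 and 16.2 FPKM, and the range from the lowest, the glial glutamate carrier SLC1A2, to the highest, the amino acid carrier SLC38A2, spanned 805-fold.

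SLC38A2 (SNAT2), a sodium-coupled carrier of small neutral amino acids, had 556 FPKM in library a and 579 in b and ranked 37 among all 12353 genes. SLC3A2, the heavy chain of the heteromeric amino acid carriers, had 129 and 132 FPKM (rank 198). SLC35B2, which brings PAPS into the Golgi, had 107 and 100.45 (rank 285), and SLC20A1, a sodium-phosphate carrier, had 102 and 98.5 (rank 300). In each of these 4 genes the libraries differed by far less than the distance to the median gene. Neighbours, here and below, are the adjacent genes in RefSeq order when only protein-coding genes are considered. By that order SLC3A2 lies next to WDR74, which had 5218 FPKM, and SLC35B2 next to HSP90AB1 (188). Both stood above the carrier gene itself, while the neighbours of SLC38A2 and SLC20A1 with a value were lower. The part of neighbouring reads in the levels of SLC3A2 and SLC35B2 was not tested. Behind them came the sugar carrier gene SLC50A1 (77.5 ± 2.48) and the glutamine carrier gene SLC1A5 (73.7 ± 3.81). Next were the glucose carrier gene SLC2A3 (64.3 ± 2.69) and the zinc carrier gene SLC39A5 (54.5 ± 8.93). The neighbour DPM3 (98.5) was higher than SLC50A1, and its part in that level was not tested. Neighbours are named below for some members only, and other members also lie next to a higher gene. SLC38A2 alone held 17.3% of the summed FPKM of the members.

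**Figure D1:**
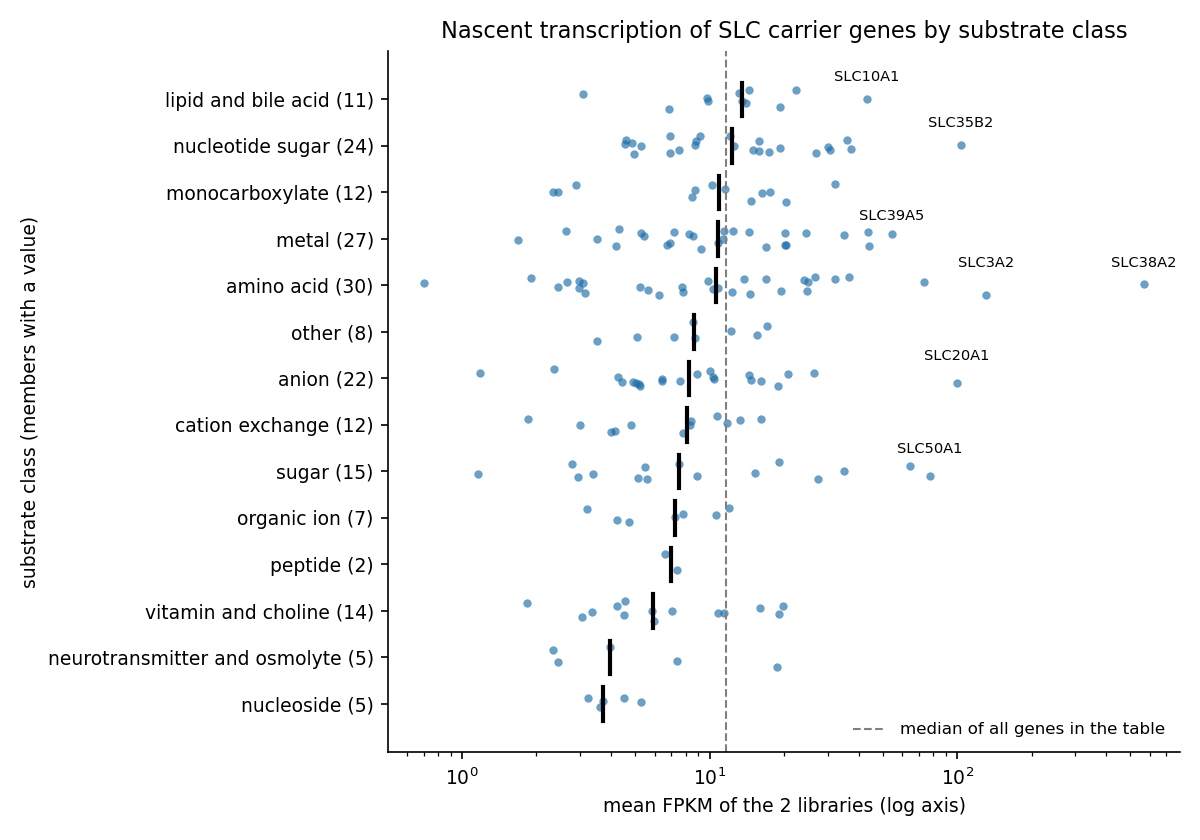
Each point is 1 member, placed at its mean FPKM over both libraries on a log axis, in rows by substrate class with the number of members in brackets, a black bar at the class median and a dashed line at the median of all genes. Class medians lie between 3.71 and 13.5 FPKM, while single genes such as SLC38A2 (567), SLC3A2 (131) and SLC35B2 (104) stand far above their class.

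Not every solute carrier gene had a value. Of the 326 protein-coding genes in RefSeq that meet the name rule, 192 (58.9%) had one, close to the 60.3% of all 20056 RefSeq protein-coding genes. The other 2 of the 194 members, SLC26A10P and SLC35E2A, are not protein-coding there. No value in the table was 0, so a gene that is not listed is described only as having no value. Coverage differed between classes. Metal carriers (27 of 33, 81.8%), monocarboxylate carriers (12 of 15, 80%) and nucleotide sugar carriers (23 of 30, 76.7%) were mostly present. Sugar carriers (15 of 30, 50%) and anion carriers (22 of 45, 48.9%) were less complete. Among carriers of organic ions, which serve mainly the kidney and liver, 7 of 24 had values (29.2%), and among those of neurotransmitters and osmolytes 5 of 15 (33.3%). The classes differ in size and were set by hand, so these shares are a description.

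Amino acid carriers held the largest part of the summed FPKM of the members, 33.3% in library a and 34.1% in b, and SLC38A2 was 51.5% of that class. The class median was 10.6 (9.88 in library a and 11.7 in b), with 14 of 30 members at or above the median of all genes. Its 3 highest members were SLC38A2, SLC3A2 and SLC1A5 (71.0 FPKM in library a and 76.4 in b), and its lowest was SLC1A2 (0.66 and 0.75). Within the SLC38 family of neutral amino acid carriers the levels ran from 567 down to 2.66 for SLC38A4, with a family median of 19.3 over 8 members. SLC38A1, which carries glutamine like SLC38A2, had 24.4 and 23.9 FPKM, and its log2 ratio to SLC38A2 was -4.55 ± 0.0608. The exchanger SLC1A4, which carries alanine and serine, had 7.17 and 8.41, 9.37-fold below SLC1A5. SLC7A1, the general carrier of arginine and lysine, had 17.2 and 16.6, and the related SLC7A2 had no value. Glutamate carriers were low: SLC1A1 stood at 2.54 and 2.34, and SLC1A3 had no value. The glycine carrier gene SLC6A9 had 12.2 and 12.5.

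Carriers of the lysosome that take part in amino acid sensing were transcribed near the median gene. SLC38A9, the arginine sensor of the mTORC1 pathway, had 8.77 FPKM in library a and 12.9 in b, a 1.48-fold difference that is among the 5 largest of all members by fold. SLC36A1, which exports small amino acids from the lysosome, had 10.9 and 9.79, and SLC66A1, the lysosomal exporter of cationic amino acids, had 21.0 and 17.9. SLC38A7, a lysosomal glutamine exporter, had 13.5 and 14.1. SLC66A1 and SLC38A7 were above the median of all genes in both libraries, SLC36A1 was below it in both, and SLC38A9 lay on either side of it.

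The heteromeric amino acid carriers consist of a heavy chain, which takes the complex to the membrane, and a light chain, which carries the substrate and is joined to it by a disulfide bond. As deposited, the value of SLC3A2 exceeded that of each of its light chain genes in both libraries. These ratios all rest on the level of SLC3A2, whose neighbour WDR74 was far higher (5218 FPKM). Its lead was smallest over SLC7A11, the light chain of the cystine-glutamate exchanger that supplies glutathione synthesis, which had 37.1 FPKM in library a and 36.3 in b (3.56-fold, log2 ratio 1.83 ± 0.0433). SLC7A7, a light chain for cationic amino acids, had 27.7 and 25.9 (4.87-fold), and SLC7A5, the light chain of the leucine carrier LAT1, had 25.5 and 24.6 (5.21-fold). The other measured light chains were lower. SLC7A6 had 8.82 and 10.8 (13.3-fold below SLC3A2), SLC7A8 6.46 and 6.05 (20.6-fold below) and SLC7A10 3.21 and 2.93 (41.3-fold below). SLC7A5 stood 1.46-fold below SLC7A11 (log2 ratio -0.55 ± 0.0171), a difference larger than the spread between libraries.

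The 6 light chain genes together came to 109 FPKM in library a and 107 in b, so SLC3A2 stood at 1.22 ± 0.0355 times their sum. This sum was formed after the values were seen. Without SLC7A7, whose level was close to those of its neighbours OXA1L (26.7) and MRPL52 (26.3), the ratio was 1.62 ± 0.0303. SLC3A1, the heavy chain of kidney and intestine, had 2.77 and 3.16 FPKM, and its partner SLC7A9 had no value, nor did SLC7A13. SLC7A5 has pseudogene copies, and no source used here says how reads that map to several places were treated, so its value is uncertain.

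**Figure D2:**
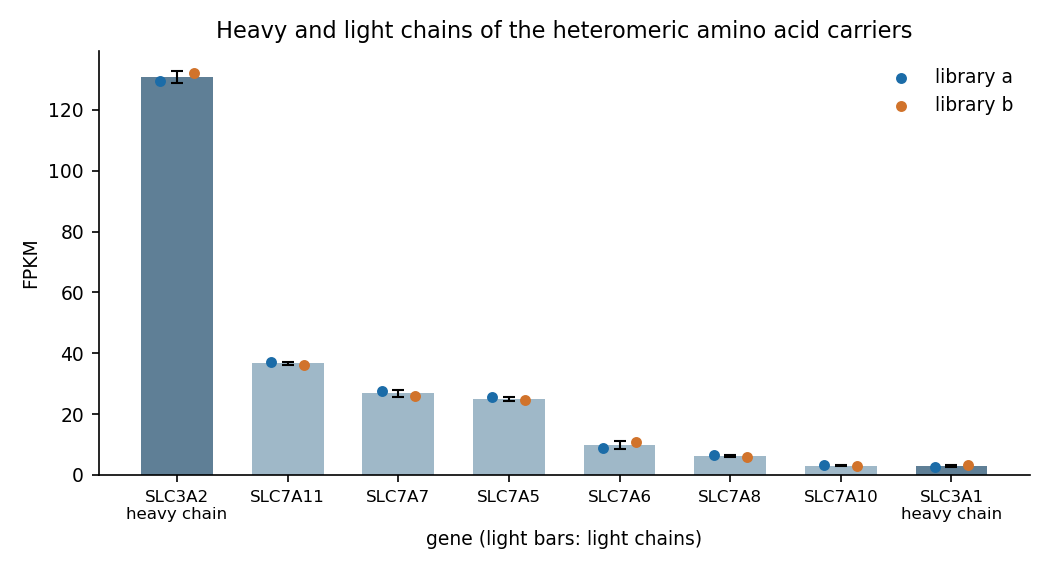
Bars give the mean FPKM of each heavy and light chain gene, error bars the SD over the 2 libraries, and points the single libraries. SLC3A2 at 131 stands above SLC7A11 at 36.7, SLC7A7 at 26.8 and SLC7A5 at 25.03, and the other heavy chain gene, SLC3A1, is at 2.97.

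Several amino acid carrier genes are known targets of ATF4, the transcription factor of the amino acid response, which binds the element TGATGNAA. RefSeq promoter windows on GRCh38.p14, 250 bases before to 50 after a start, were searched for it on both strands. It occurred in 5 of the 45 windows of amino acid carriers with a value (11.1%), each in another gene, and in 598 of all 22180 protein-coding windows (2.70%). The share was also above that of all windows in metal carriers with a value (3 of 36, 8.33%), so it is not particular to amino acid carriers. The matches are shown because they lie in carriers described here, SLC3A2 and SLC1A5 among them, with the element in capitals on the strand of the gene and up to 10 bases of flank.
SLC3A2 (chr11:62881726-62881748, + strand): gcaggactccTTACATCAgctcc
SLC1A5 (chr19:46784894-46784921, - strand): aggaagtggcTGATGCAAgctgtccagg
SLC38A1 (chr12:46266503-46266530, - strand): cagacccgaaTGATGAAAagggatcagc
SLC7A1 (chr13:29595664-29595691, - strand): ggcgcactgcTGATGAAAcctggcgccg
SLC1A4 (chr2:64989382-64989409, + strand): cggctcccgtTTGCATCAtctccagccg

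The match began 97 bases before a listed start in SLC1A5, 7 before in SLC1A4 and 4 before in SLC38A1. It began at base 38 after a listed start in SLC3A2 and base 8 in SLC7A1. SLC1A5 and SLC3A2 have 3 listed starts and SLC1A4 and SLC38A1 have 2, and their other windows held no match. Which start these cells use was not tested. The 5 genes ranged from 7.79 ± 0.877 (SLC1A4) to 131 ± 1.94 FPKM (SLC3A2), and SLC38A2, the highest member, had no match in its window. The element occurred in 4.78% of the windows of all members with a value and in 7.26% of those of members without one, so its presence did not go with having a value. A match of letters does not show that a factor binds there.

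Sugar carriers had a class median of 7.52 FPKM (7.63 in library a and 7.40 in b), and 6 of 15 were at or above the median of all genes. SLC50A1, whose neighbour DPM3 was higher (98.5), led with 75.7 FPKM in library a and 79.2 in b. Of the facilitative glucose carriers, SLC2A3 (GLUT3) had 62.4 and 66.2 and SLC2A1 (GLUT1) 34.3 and 35.6, so SLC2A1 stood 1.84-fold below SLC2A3 (log2 ratio -0.88 ± 0.0231). SLC2A3 has a close copy, SLC2A14, which had no value, and reads shared between them could have been counted in either. The insulin-responsive SLC2A4, the hepatic SLC2A2 and the fructose carrier SLC2A5 had no value. SLC5A3, which takes up myo-inositol, had 28.6 and 26.2, and its span overlaps MRPS6 (12.005). SLC2A6 had 15.2 in both libraries. SLC2A10, SLC2A12, SLC2A11, SLC2A8 and SLC2A9 lay between 7.52 and 2.93, and the lowest member was SLC45A4 (1.22 and 1.11).

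Carriers of the SLC16 family move lactate, pyruvate and other monocarboxylates with protons, and the main lactate carriers need the chaperone basigin (BSG) to reach the membrane. The class, with SLC5A12, had a median of 10.9 (10.96 in library a and 11.5 in b), and 5 of 12 members were at or above the median of all genes. SLC16A3 (MCT4), known for lactate export, led with 32.7 FPKM in library a and 31.4 in b. SLC16A1 (MCT1) had 13.8 and 15.6, 2.17-fold below SLC16A3 (log2 ratio -1.12 ± 0.168). BSG had 16.2 and 12.98, so SLC16A3 exceeded it 2.20-fold, whereas SLC16A1 did not differ from it beyond the spread (log2 ratio 0.018 ± 0.352, with opposite signs in the libraries). SLC16A7 had 7.43 and 10.1, and the other chaperone, EMB, had no value. SLC16A3 overlaps CSNK1D, which had 81.8 FPKM. The other high members were SLC16A4 (20.0 and 20.8) and SLC16A13 (16.2 and 18.7), and the lowest was SLC16A14 (2.53 and 2.13).

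Metal carriers had the fullest coverage, with a median of 10.8 FPKM (11.4 in library a and 10.9 in b). Without the members that overlap another protein-coding gene it was 9.27. The 3 highest were SLC39A5 (60.8 FPKM in library a and 48.2 in b), SLC39A7 (43.7 and 44.2) and SLC39A1 (43.2 and 44.4), and the lowest was the magnesium carrier gene SLC41A2 (1.87 and 1.49). SLC39A7 releases zinc from the endoplasmic reticulum and Golgi, and SLC39A13 (34.4 and 35.5), a Golgi and vesicle zinc carrier, is needed for connective tissue development. Both lie next to a higher gene, HSD17B8 (70.7) for SLC39A7 and PSMC3 (57.5) for SLC39A13. SLC39A5, known from intestine and pancreas, overlaps ANKRD52 (33.2 FPKM), and SLC39A1 overlaps CREB3L4 (64.965).

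The SLC39 carriers bring zinc into the cytosol and the SLC30 carriers remove it. Of the SLC39 genes 12 of 14 had values, with 6 at or above the median of all genes, and of the SLC30 genes 7 of 11, with 1 at or above it. The family medians did not differ beyond the spread: the log2 difference, SLC39 less SLC30, was 0.17 ± 0.283, and its sign was negative in library a (-0.033) and positive in library b (0.37). SLC30A6 had 18.7 and 21.6 FPKM, and SLC30A5, with which it forms a heteromer in the early secretory pathway, 6.71 and 7.69, 2.78-fold less (log2 ratio -1.47 ± 0.00843). SLC30A1, the plasma membrane exporter, had 11.42 and 11.37. SLC39A6 and SLC39A10, which form a heteromer too, did not differ (log2 ratio 0.039 ± 0.381), nor did SLC39A8 and SLC39A14 (0.057 ± 0.153), which also carry manganese and iron.

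**Figure D3:**
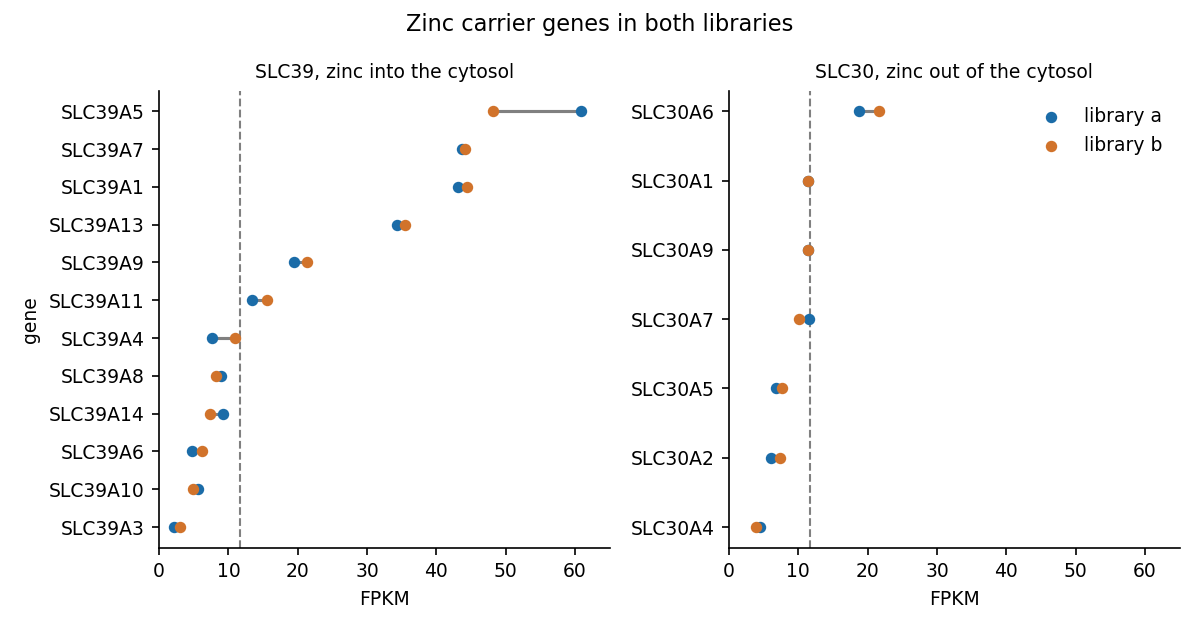
FPKM of each SLC39 gene (left) and SLC30 gene (right), with 1 point per library joined by a line, and a dashed line at the median of all genes. The SLC39 genes spread from 2.63 to 54.5 and the SLC30 genes from 4.19 to 20.2, and SLC39A5 shows the widest gap between libraries in FPKM, whereas by fold SLC39A4 (1.45-fold) differed more than SLC39A5 (1.25-fold).

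Among the other metal carriers, SLC48A1, which exports haem from the lysosome, had 25.5 FPKM in library a and 23.4 in b. The copper importer gene SLC31A1 had 15.6 and 18.2, and its relative SLC31A2 had 3.58 and 3.44. Of the SLC11 iron and manganese carriers, SLC11A2 had 7.16 and 6.70. SLC11A1, known from macrophages, had 18.8 and 21.5, and its span overlaps CTDSP1 (47.1). The iron exporter ferroportin, SLC40A1, had no value, nor had SLC30A10. The letters TGCNCNC, a looser form of the metal response element, were searched on either strand. They occurred in 17 of 36 windows of metal carriers with a value (47.2%), against 60.1% of all protein-coding windows. Counted by gene, 15 of 24 metal carriers with a value and a window had a match, and no such share was computed for all genes. Letters this common do not mark sites of the metal-responsive factor MTF1.

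Nucleotide sugar carriers of the SLC35 family supply the Golgi and endoplasmic reticulum with the donors of glycosylation and sulfation. They had a median of 12.4 FPKM (12.6 in library a and 12.2 in b), and 13 of 24 members were at or above the median of all genes. SLC35B2, with 107 and 100.45, stood 3.84-fold above SLC35B3 (26.6 and 27.2), the other PAPS carrier (log2 ratio 1.94 ± 0.085). SLC35F5 had 37.8 and 36.9, and SLC35B1, which exchanges ATP for ADP at the endoplasmic reticulum, had 33.6 and 38.4. Of the carriers for glycan building blocks, the UDP-galactose carrier gene SLC35A2 had 30.0 and 30.4. The CMP-sialic acid carrier gene SLC35A1 had 16.4 and 15.2, the GDP-fucose carrier gene SLC35C1 15.5 and 14.4, and SLC35D1, which carries precursors of chondroitin sulfate, 7.77 and 7.29. The UDP-N-acetylglucosamine carrier gene SLC35A3 was among the lowest at 4.53 and 4.66. The subfamilies A to D, most of which have a known substrate, had a median of 15.8 over 13 members, and the less studied E to G one of 8.80 over 11. SLC35E2A, the lowest at 4.68 and 4.40, and SLC35E2B are near-identical copies, as are SLC35G5 and SLC35G6, so their values are uncertain.

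Anion carriers had a median of 8.28 FPKM (8.54 in library a and 7.77 in b), with 7 of 22 members at or above the median of all genes, and SLC20A1 held 32.9% of their sum. SLC20A1 stood 6.19-fold above SLC20A2 (16.5 and 15.7), the other widespread phosphate carrier (log2 ratio 2.63 ± 0.0229), whose span overlaps SMIM19 (85.6). SLC12A4, a potassium-chloride cotransporter that acts in volume regulation, had 25.6 and 27.4. Its span overlaps LCAT (29.2), and its neighbour PSMB10 was far higher (133.8). The part of these genes in its level was not tested. SLC12A2 (NKCC1), which works in the opposite direction, had 2.14 and 2.56, 10.9-fold less than SLC12A4. Of the bicarbonate carriers, the exchanger SLC4A2 had 20.61 and 20.71 and the sodium-coupled SLC4A7 15.7 and 13.9, a 1.40-fold difference (log2 ratio 0.49 ± 0.128). SLC26A2, which takes up sulfate and is needed for cartilage proteoglycans, was low at 5.62 and 4.19. SLC26A6 had 21.0 and 16.8. The lowest member was SLC26A9 (1.16 and 1.2).

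The sodium-proton and sodium-calcium exchangers had a median of 8.09 FPKM over 12 members, 3 of them at or above the median of all genes. SLC9A5 (17.01 FPKM in library a and 15.4 in b), SLC9A3 (14.95 and 11.7) and SLC9B2 (11.8 and 11.7) were highest and SLC9C1 lowest (1.60 and 2.09). The Golgi exchangers SLC9A8 and SLC9A7 were at 8.43 and 4.16 FPKM (means). SLC8A1, the plasma membrane sodium-calcium exchanger, had 3.97 and 4.04, and the mitochondrial SLC8B1 7.65 and 8.04.

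Vitamin and choline carriers were lower, with a median of 5.91 FPKM and 3 of 14 members at or above the median of all genes. SLC44A2 (20.4 FPKM in library a and 19.4 in b), SLC23A3 (18.04 and 20.2) and the riboflavin carrier gene SLC52A2 (15.1 and 16.98) led. SLC44A1, the main choline carrier, had 4.44 and 4.62, 4.31-fold below SLC44A2. The folate carriers SLC19A1 (3.10 and 3.01) and SLC46A1 (1.60 and 2.08) and the ascorbate carrier SLC23A2 (3.23 and 3.48) were all in the low range. SLC5A6, the carrier of biotin and pantothenate, had 9.12 and 12.6, and its span overlaps ATRAID (55.065).

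Nucleoside carriers were low, with a median of 3.71 FPKM over 5 members (4.26 in library a and 3.23 in b), none of which reached the median of all genes. The neurotransmitter and osmolyte class had a median of 3.95 (4.02 in library a and 3.88 in b), so the order of these classes differed between libraries. SLC17A9, the vesicular ATP carrier, had 4.82 FPKM in library a and 5.73 in b. SLC29A2 had 4.70 and 4.30, and SLC29A1 4.26 and 3.16, a difference within 2 SD (log2 ratio, SLC29A1 over SLC29A2, -0.29 ± 0.208). SLC43A3, a purine nucleobase carrier, was lowest at 3.73 and 2.72.

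The lipid and bile acid class had a median of 13.5 FPKM over 11 members, 7 of them at or above the median of all genes. SLC10A1, the bile acid carrier of hepatocytes, had 45.3 FPKM in library a and 41.1 in b. SLC33A1, which brings acetyl-CoA into the endoplasmic reticulum, had 22.5 and 22.1, and the fatty acid carrier genes SLC27A5, SLC27A3, SLC27A1 and SLC27A4 stood at 19.2, 14.5, 14.1 and 6.87. SLC10A7 was lowest at 3.23 and 2.91. The organic ion class was led by SLC22A18 (10.5 and 13.4), the ergothioneine carrier gene SLC22A4 (11.2 and 9.91) and SLC22A23 (7.29 and 8.39), with the carnitine carrier gene SLC22A5 at 3.70 and 4.73 and SLC22A13 lowest at 3.15 and 3.26. Of the neurotransmitter and osmolyte class, the taurine carrier gene SLC6A6 had 19.02 and 18.4, the creatine carrier gene SLC6A8 7.77 and 7.03, and the serotonin carrier gene SLC6A4 4.02 and 3.88. SLC18A2 was its lowest at 2.45 and 2.21. The lysosomal peptide carriers SLC15A4 and SLC15A3 had 7.36 and 6.60 (means). Of the 8 members placed in no class, SLC2A4RG (19.6 and 14.7), SLC66A3 (15.8 and 15.4) and SLC7A6OS (12.3 and 12.2) were highest, and SLC2A4RG, SLC7A6OS, SLC4A1AP and the pseudogene SLC26A10P are not carriers but named after carrier genes.

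Grouped by compartment instead of substrate, the 34 members placed in the Golgi or endoplasmic reticulum had a median of 13.6 FPKM (13.3 in library a and 13.4 in b). Of these, 19 were at or above the median of all genes. The 16 members of lysosomes, endosomes and vesicles had a median of 6.66 (6.43 and 6.89) with 4 at or above it. The 142 members of the plasma membrane or with no placement had a median of 8.52 (8.15 and 8.43), with 51 at or above it. Medians are taken over gene means and need not lie between those of the libraries. Of the 34, 24 belong to the SLC35 family described above. Compartments were assigned by gene name, and every SLC35 member was placed in this group, the less studied subfamilies E to G included. The location of each protein in these cells was not tested.

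Carriers known from other tissues, a list set by hand, had lower coverage. Of 30 such genes 10 had a value (33.3%), against 58.9% of the protein-coding members and 60.3% of all RefSeq protein-coding genes. By tissue these were 3 of 11 neuronal, 4 of 13 of kidney and intestine, 3 of 5 hepatic and not the red cell exchanger SLC4A1. The vesicular glutamate and GABA carriers SLC17A6, SLC17A7 and SLC32A1 had none, nor had the kidney carriers SLC34A1, SLC22A6, SLC22A8 and SLC12A1. Some of the 10 were well above the median member: SLC10A1, SLC27A5 (19.8 FPKM in library a and 18.6 in b), the kidney glucose carrier SLC5A2 (21.6 and 16.5) and the intestinal SLC9A3. In RefSeq order on GRCh38 the neighbours of SLC10A1 are SRSF5, with 66.9 FPKM, and SMOC1, with no value. SLC27A5 lies between ZNF446 (19.2) and ZBTB45 (23.5), and SLC5A2 overlaps RUSF1 (21.3) next to TGFB1I1 (38.9). Whether reads of neighbouring genes entered these values was not tested, and no source used here says whether counting was strand-specific.

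The starts of the genes with a value were richer in CpG dinucleotides than the starts of those without. CpG-rich starts are typical of broadly expressed genes and CpG-poor ones of genes with a restricted pattern. Over the RefSeq windows of 300 bases, the ratio of observed to expected CpG (the median over a gene's listed starts) had a median of 0.766 in the 154 members with a value and a window, against 0.439 in the 99 members with a window and no value. A ratio of 0.6 or more was found in 108 of the 154 (70.1%) and in 37 of the 99 (37.4%). The same held outside the family, with 80.1% of 9815 other protein-coding genes with a value and 37.4% of 5775 without. Genes with a single listed start gave 75.7% of 103 members with a value and 38.5% of 78 without. The GC box GGGCGG, on either strand and free to overlap other motifs, occurred in 62.6% of the windows of members with a value, in 38.7% of those without and in 56.3% of all protein-coding windows. The TATA box letters TATAAA occurred in 4.78%, 17.7% and 9.47%.

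**Figure D4:**
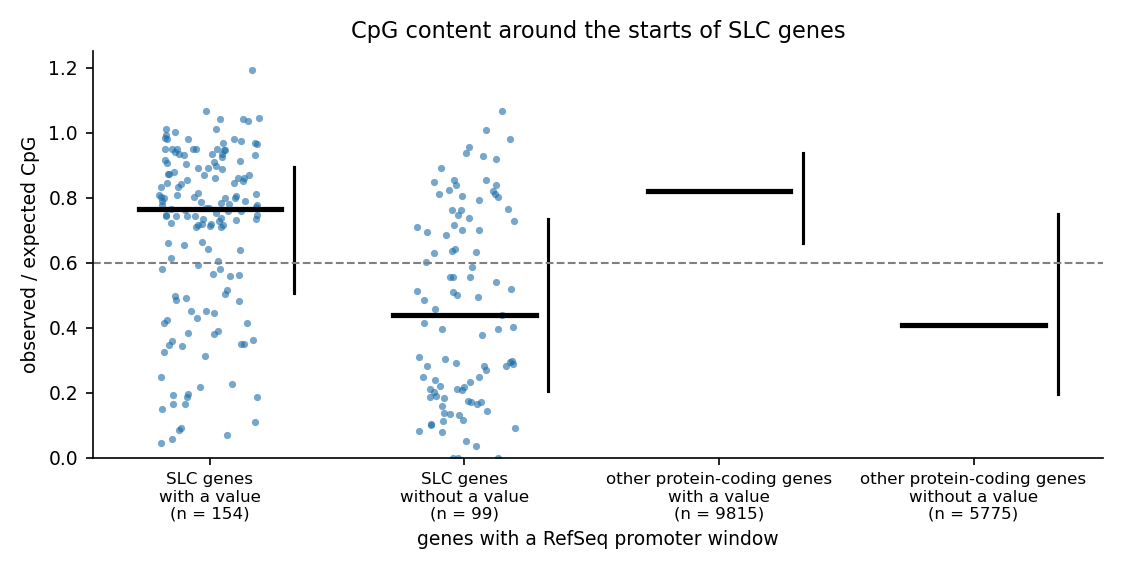
Ratio of observed to expected CpG in the promoter window, with 1 point per member, thick bars at the median and thin lines from the 25% to the 75% quartile, and a dashed line at 0.6. Members with a value (median 0.766) lie above members without (0.439), and the other protein-coding genes, drawn without points, stand at 0.821 and 0.408.

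The 250 bases before the start are printed for 6 genes to show this range, with CpG dinucleotides in capitals, from RefSeq on GRCh38.p14. SLC38A2, SLC20A1 and SLC2A1 are highly transcribed carriers with a single listed start, SLC10A1 and SLC5A2 are carriers of other tissues that had a value, and SLC22A6, the kidney carrier of organic anions, had none.
SLC38A2 (chr12:46372774-46373023, - strand): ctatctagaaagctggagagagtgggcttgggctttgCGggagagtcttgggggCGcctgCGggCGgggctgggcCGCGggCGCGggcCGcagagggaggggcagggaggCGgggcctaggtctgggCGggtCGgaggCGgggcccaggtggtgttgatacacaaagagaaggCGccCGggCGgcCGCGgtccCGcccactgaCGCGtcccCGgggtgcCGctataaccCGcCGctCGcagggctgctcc
SLC20A1 (chr2:112645689-112645938, + strand): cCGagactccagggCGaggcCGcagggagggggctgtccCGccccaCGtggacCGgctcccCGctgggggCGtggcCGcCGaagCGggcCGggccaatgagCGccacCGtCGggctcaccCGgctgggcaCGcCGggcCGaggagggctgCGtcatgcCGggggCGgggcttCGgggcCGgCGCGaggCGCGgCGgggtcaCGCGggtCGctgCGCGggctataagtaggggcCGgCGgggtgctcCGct
SLC2A1 (chr1:42958869-42959118, - strand): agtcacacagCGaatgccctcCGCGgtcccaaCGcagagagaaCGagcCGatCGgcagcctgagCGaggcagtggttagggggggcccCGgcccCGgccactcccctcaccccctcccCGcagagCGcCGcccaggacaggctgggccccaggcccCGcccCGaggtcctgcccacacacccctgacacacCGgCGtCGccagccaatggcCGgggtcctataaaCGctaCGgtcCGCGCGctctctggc
SLC10A1 (chr14:69797242-69797491, - strand): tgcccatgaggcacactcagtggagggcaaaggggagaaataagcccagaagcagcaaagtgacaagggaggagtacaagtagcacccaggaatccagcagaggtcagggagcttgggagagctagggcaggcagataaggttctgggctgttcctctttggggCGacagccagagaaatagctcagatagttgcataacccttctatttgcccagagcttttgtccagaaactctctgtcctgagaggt
SLC5A2 (chr16:31482873-31483122, + strand): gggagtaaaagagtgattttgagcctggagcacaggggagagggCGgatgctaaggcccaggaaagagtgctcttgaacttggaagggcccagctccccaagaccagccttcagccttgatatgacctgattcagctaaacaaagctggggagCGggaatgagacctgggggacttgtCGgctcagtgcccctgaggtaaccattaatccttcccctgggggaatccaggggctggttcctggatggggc
SLC22A6 (chr11:62984968-62985217, - strand): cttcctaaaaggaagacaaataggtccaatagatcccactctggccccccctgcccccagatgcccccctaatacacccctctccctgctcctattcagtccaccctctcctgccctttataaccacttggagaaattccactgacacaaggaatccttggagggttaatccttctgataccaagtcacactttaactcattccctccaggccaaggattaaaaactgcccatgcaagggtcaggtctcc

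These stretches hold 26 CpG in SLC38A2, 37 in SLC20A1 and 24 in SLC2A1, but 1 in SLC10A1, 3 in SLC5A2 and 0 in SLC22A6. SLC38A2 has 4 GC boxes, SLC20A1 and SLC2A1 2 each and SLC5A2 1. In SLC2A1 the letters TATAAA begin 31 bases before the start.

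Among members with a value, a CpG-poor start did not go with a low level. The 46 members with a ratio under 0.6 had a median of 10.4 FPKM (10.7 in library a and 10.8 in b), against 8.50 (8.10 and 8.32) in the 108 at 0.6 or more. Of the 46, 17 overlapped another protein-coding gene (26 of the 108). The highest of the overlapping and adjacent genes had a median of 23.4 FPKM over 45 of the 46, against 16.9 over 101 of the 108. It was above the member itself in 36 of the 45 (80%) and in 75 of the 101 (74.3%). A member with an overlap has more genes from which the highest is taken. A total of 16 members had a ratio under 0.3. The highest of them were SLC39A5 (ratio 0.045), SLC10A1 (0.151), SLC7A7 (0.0563), SLC16A4 (0.165, next to RBM15 at 40.96 and LAMTOR5 at 48.7 FPKM), SLC27A5 (0.0708), SLC23A3 (0.186) and SLC5A2 (0.166). The part of neighbouring transcription in these values was not tested.

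The libraries measured the members alike. The median member differed by a factor of 1.10 between them after the median shift of all genes was taken off, as did all genes (1.097), and the Spearman rho over the 194 members was 0.981, a description across genes that share libraries. Only SLC49A4 (4.40 FPKM in library a and 2.65 in b) and SLC9B1 (2.32 and 3.67) differed by more than 1.5-fold, which is 1.03% of members, against 2.16% of all genes. SLC9B1 was the 1 member higher in library b (background 1.05%) and SLC49A4 the 1 higher in library a (background 1.11%). SLC66A2 (4.10 and 6.13), SLC35E1 (10.5 and 6.98) and SLC38A9 came next, at 1.4995-fold, 1.48-fold and 1.48-fold. Low genes varied more: the median factor was 1.14 in the 65 lowest members (up to 5.66 FPKM) and 1.06 in the 65 highest. Of the 23 chosen gene pairs with values in both genes, 19 had a log2 ratio beyond 2 SD, and the 4 exceptions were SLC16A1 with BSG, SLC39A6 with SLC39A10, SLC29A1 with SLC29A2 and SLC39A8 with SLC39A14. With n = 2, each SD is a rough estimate.

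**Figure D5:**
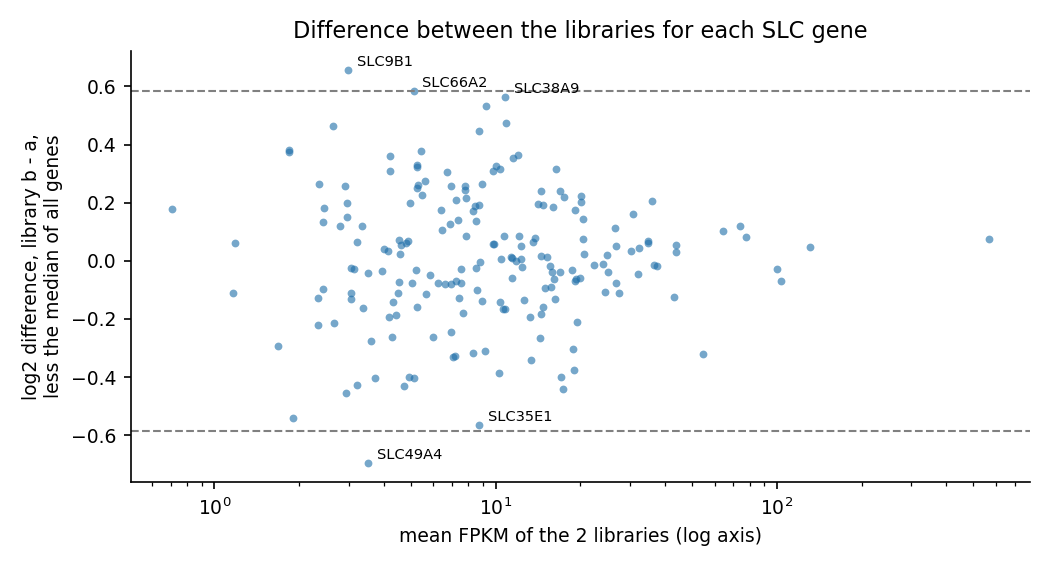
Difference between the libraries for each member, as log2 of library b over library a less the median of all genes, against its mean FPKM on a log axis, with dashed lines at 1.5-fold. SLC9B1 lies above the upper line and SLC49A4 below the lower one, and the spread narrows to the right.

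Set beside other transporter groups, the members (median 8.74) lay below the mitochondrial SLC25 carriers (10.5 over 38 genes), near the P-type ATPases (8.65 over 23) and above the ABC transporters (4.44 over 25). These medians were not tested against each other. None of these 3 groups held a gene at 100 FPKM or more, a level reached by 2.43% of all genes and 2.06% of the members. At such shares, groups of this size can easily hold none. Their highest genes were SLC25A3 (64.3), ATP2B4 (34.9) and ABCF3 (41.3).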

How the data were processed

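The deposited FPKM values were made by the authors and cover 12353 Ensembl identifiers in 2 columns. Per the submitters' processing notes, Bowtie2, HTSeq and the build hg19 were used, without versions. No source used here gives the gene length, the read total or the treatment of strand and multi-mapped reads. The column letters match neither replicate number in the labels, so the columns were tied to the group only. The depth is unknown, so no counting interval is given.

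Identifiers were paired with symbols through an Ensembl name table (12202 matched), and RefSeq on GRCh38.p14 gave coverage, gene order and promoters (154 of the 194 members with a value had a promoter). No coordinates of that build were set against the hg19 values. Log ratios used log2(FPKM + 0.1). No test was run, since the series has 1 group. Any member could be named. Values per library were set by rule for the 3 highest and the lowest of each class, all heavy and light chains, the chosen pairs and partners, and the 5 largest differences. Members, classes and pairs were chosen with earlier results of these data known. The alternatives were a pseudocount of 1, a minimum mean FPKM of 1, quantile normalization, geometric means, leaving out overlapping members and leaving out each library. The 1.5-fold call between libraries was checked on simulated data with genes raised by known folds. A simulated class raised in both libraries moved by the same fold, which holds by arithmetic and is no check. No other summary was checked in this way (Python 3.11.15, pandas 2.3.3, numpy 2.4.6). Some members and partner genes are not reported here.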

Additional observations from a re-analysis of the deposited data

How the results depend on the processing

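Of 195 recomputed values, 164 moved by less than the spread between libraries (for counts, by less than 1.5 times) and 31 moved further. For the share of coding members with a value, the limit was instead a binomial margin of 5.34 percentage points. The 92 recomputed pair ratios could not change a called sign, so their signs are no check. Leaving out 1 library always moves a pair ratio by less than its SD, which places it among the 164. The other alternatives for pairs keep the order of genes within a library. Geometric means gave 9.26 FPKM for all members, 9.56 for sugar and 12.9 for nucleotide sugar carriers. Without members that overlap another protein-coding gene, the class medians were 12.3 for amino acid, 9.27 for metal, 14.965 for nucleotide sugar and 8.93 for anion carriers, and the cause was not tested. With a pseudocount of 1, the log2 ratio of SLC3A2 was 4.18 over SLC7A8 and 5.02 over SLC7A10, since a larger pseudocount shrinks the ratios of low genes, and the number of members beyond 1.5-fold between libraries was 0. Against all symbols of the name table, which include noncoding genes and pseudogenes, 46.6% had a value. With 1 library left out, the metal median ranged from 10.9 to 11.4, that of all members from 8.70 to 8.82, and the zinc family difference from -0.033 to 0.37, so its sign differed between the libraries. Leaving out the 4 members that are not carriers, chosen after seeing the data, gave 8.74. No paired analysis was possible because the samples form 1 group. The unknown depth limits what can be said of low genes.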

Other observations

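Carriers of SLC families that go under other symbols, and so fall outside the name rule, had values in 30 of 31 cases (96.8%). Coverage was 58.9% among the protein-coding members and 60.3% among all RefSeq protein-coding genes. The 31 genes were listed by hand, so their share is a description. Their median was 9.54 FPKM (9.63 in library a and 9.46 in b). The lysosomal cystine exporter gene CTNS was highest, with 64.9 FPKM in library a and 59.1 in b. MFSD3 (37.6 and 37.0), the Golgi protein gene TMEM165 (33.1 and 31.1) and MFSD10 (28.9 and 30.9) followed. NPC1, which exports cholesterol from the lysosome, had 19.2 and 20.2. The mitochondrial pyruvate carrier genes MPC2 and MPC1 had 12.6 and 12.6, and 8.92 and 6.77. The phosphate exporter gene XPR1, with 3.28 and 3.67, stood far below the importer gene SLC20A1.

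The sodium-potassium pump maintains the gradient that drives sodium-coupled carriers. Its accessory subunit genes ATP1B3 and ATP1B1 had 23.1 FPKM in library a and 21.1 in b, and 16.6 and 16.8. The scaffold gene NHERF1, which anchors exchangers at the membrane, had 91.0 and 84.0, and NHERF2 had 22.1 and 17.9.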
